A study of Mus musculus with 12 samples.

Results

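The 8 genes that make, bind and break down hyaluronan in this study were taken from its 4 expression tables as the rows whose gene symbol was Has1, Has2, Has3, Cd44, Hyal1, Hyal2, Vcan or Tnfaip6, 8 of 45859 rows. RNA came from lens capsules with their attached lens epithelial cells (LCs) of adult mice 2 months old, after the fiber cells had been taken out of the living eye through an incision in the cornea, a model of cataract surgery. Capsules were collected at once (0 h post cataract surgery, PCS) or 24 h PCS. WT mice were C57BL/6, and mice lacking β8 integrin from the lens (β8ITG-cKO), made from a floxed Itgb8 allele and the lens-specific MLR10-Cre transgene, were of mixed C57BL/6 and 129S1/Sv background, so genotype and strain cannot be told apart. There were 3 libraries for each of 4 conditions, 12 in all, each of pooled capsules, and every group, 0 h included, had been through surgery.

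Hyaluronan is a long, unsulfated sugar chain of the extracellular matrix. Hyaluronan synthases (Has proteins) spin it at the plasma membrane from UDP-glucuronic acid and UDP-N-acetylglucosamine and push it out of the cell, cell surface receptors such as CD44 hold it, proteoglycans such as versican knit it into a pericellular coat, and hyaluronidases cut it into shorter pieces. The polymer is known for its part in tissue swelling, cell migration and scarring, and in the eye it fills the vitreous that lies behind the lens.

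The values are FPKM, fragments counted for a gene divided by its length and by the size of the library. This lets levels be set side by side between genes. Comparison between libraries also depends on the scaling, and the calls were repeated with every library rescaled to the same median. FPKM without counts leave the sequencing depth unknown. Differences were tested with limma-trend on log2(FPKM + 1) for genes averaging 0.5 FPKM or more over the compared libraries, with Benjamini-Hochberg adjustment over all of them. To be called, a gene needed an adjusted p of 0.05 or less, group means over 2-fold and over 2 FPKM apart, and 2 FPKM or more in 1 group (the size limits).

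Some features of the libraries touch every value below. The FPKM of a library summed to between 446531 and 740140, and the 10 highest genes held 36.0% to 49.6% of it. Relative depth, read from the steps between low values, lay between 0.88 and 1.1. That reading took in only small differences in depth, so it could not have shown a large one. Pax6 and Foxe3, which mark lens epithelium, were at 59.90 to 93.49 and at 25.46 to 172.17 FPKM over the 12 libraries. In each genotype their means were lower at 24 h, as were those of Cryab, Cryaa, Prox1, Pitx3 and Six3. The Foxe3 mean went from 74.35 to 36.29 in WT and from 141.6 to 31.16 in β8ITG-cKO. Cdh1 was higher at 24 h in WT and lower in β8ITG-cKO. The summed FPKM of 8 lens fiber genes lay between 31466.5 and 46929.7 in WT 0 h and 11102.1 and 15643.8 in WT 24 h libraries. In β8ITG-cKO it lay between 37742.3 and 44981.8 at 0 h and 7238.8 and 9603.3 at 24 h. A listed 0 need not mean absence, since WT 0 h replicate 2 has 0 for the abundant lens gene Cryaa, which reached at least 8385.01 FPKM in the other libraries. Itgb8, the deleted gene, was at 8.38 to 9.58 FPKM in WT and 9.28 to 11.83 FPKM in β8ITG-cKO libraries at 24 h. At 0 h it was at 7.26 to 10.78 and 4.58 to 7.31 FPKM, so its gene-level FPKM overlapped between the genotypes at both times. The floxed part is an exon rather than the whole gene, so gene-level FPKM need not fall with the deletion. The study reported the deletion by PCR of lens DNA and the absence of β8 protein by immunofluorescence. In these libraries each genotype difference rests on the labels. The summed level of 9 retinal genes was 136.7 to 1136.8 FPKM in WT 0 h, 72.3 to 134.0 in WT 24 h, 174.7 to 324.9 in β8ITG-cKO 0 h and 840.4 to 981.5 in β8ITG-cKO 24 h libraries. In bulk RNA such as this, fewer cells of a type and less RNA per cell cannot be told apart.

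The 8 genes were expressed at very different levels. Cd44 was the highest in all 4 conditions, with group means of 34.7 to 146 FPKM, and Vcan came next at 15.1 to 20.3 FPKM. Within each condition both stood clear of the rest, with no library of Vcan reaching Cd44 and none of the other genes reaching Vcan. Below them lay Hyal1, Hyal2 and Has1, between 1.20 and 5.41 FPKM in single libraries, and Has2, Has3 and Tnfaip6 stayed at 0.87 FPKM or less in every library. The order of the middle genes changed with time. In WT at 0 h it was Hyal1, Has1, Hyal2, and at 24 h in both genotypes it was Hyal2, Hyal1, Has1, with no overlap between neighbours in either case. In β8ITG-cKO LCs at 0 h Hyal2 already lay above Has1. Among the lowest genes, Has2 could not be ranked against Has3 at 24 h in either genotype, nor against Tnfaip6 in WT at 0 h or β8ITG-cKO at 24 h, since their libraries overlapped.

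**Figure D1:**
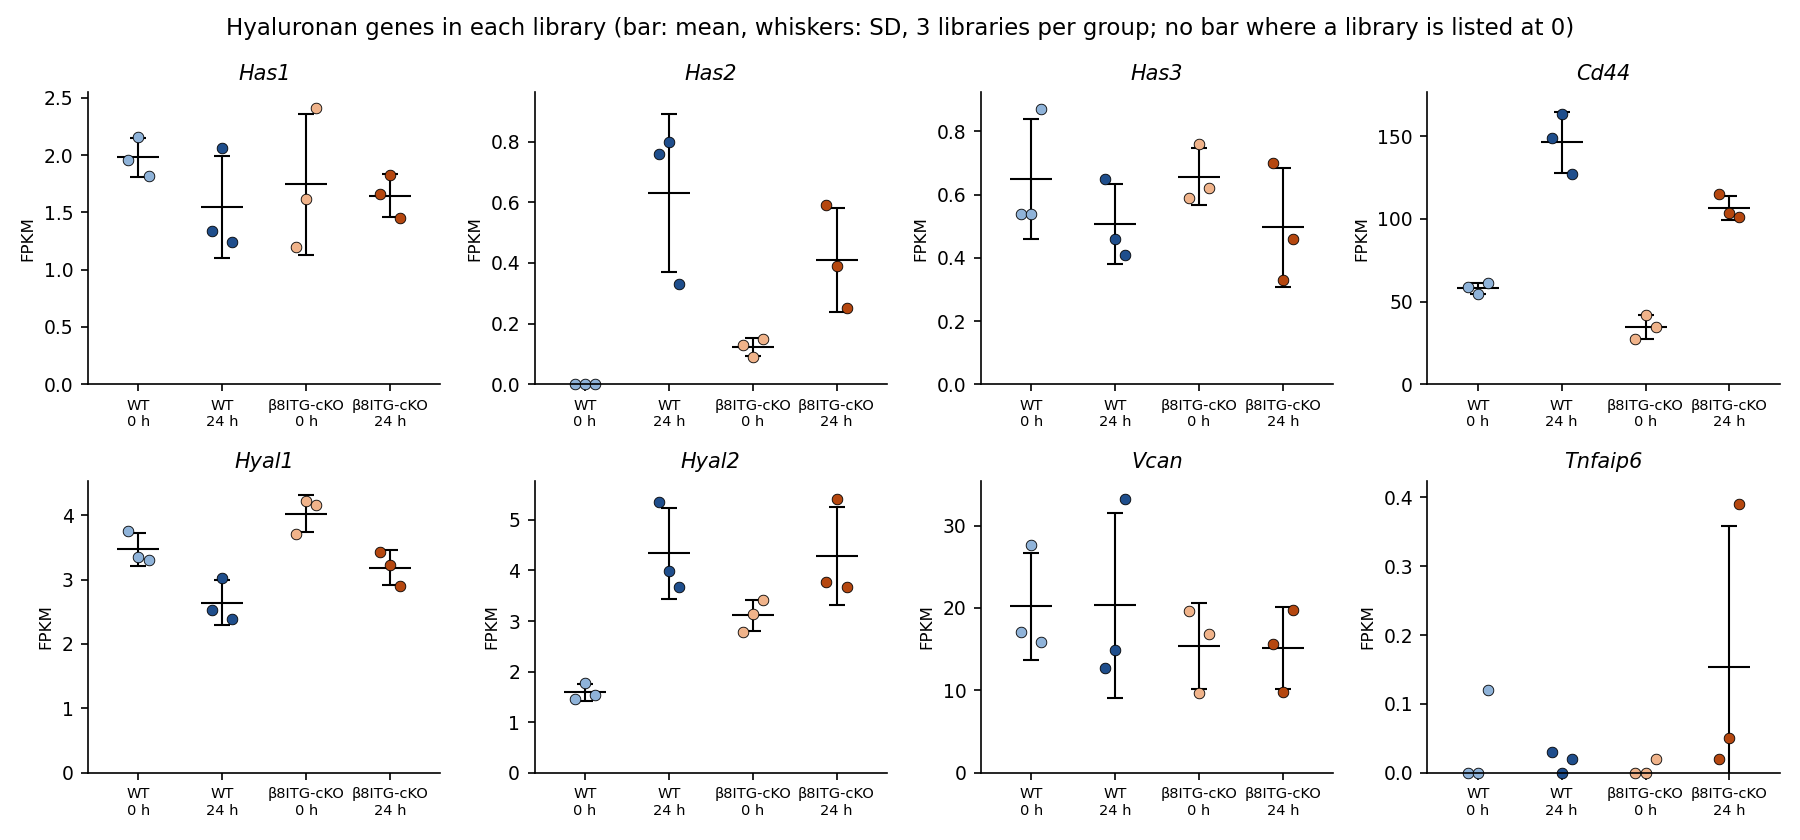
FPKM of the 8 genes (vertical axes, linear, each from 0) in the 3 libraries of each of the 4 conditions (points), with the group mean (bar) and SD (whiskers) except where a library is listed at 0. Cd44 rises from 54.56 to 61.20 FPKM in WT 0 h libraries to 126.97 to 163.43 FPKM in WT 24 h libraries, while the points of Has1, Has3 and Vcan overlap in all 4 conditions.

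Between 0 h and 24 h PCS in WT LCs, 2 of the 6 genes that passed the filter on low values were called, Cd44 and Hyal2, both higher at 24 h. Among all 15146 genes tested, 10.3% were called higher and 3.92% lower. The 2 genes that did not pass the filter were Has2 and Tnfaip6. In β8ITG-cKO LCs, 1 of 6 was called over the same time, Cd44, again higher, where 11.3% of all 15237 genes tested were called higher and 3.77% lower. The median of the 6 log2 changes was -0.10 in WT, where the median gene moved by 0.16, and -0.03 in β8ITG-cKO, where it moved by 0.23. When every library was rescaled to the same median, these shifts of the median gene became -0.05 and 0.00, and the calls over all genes became 982 higher and 961 lower in place of 1566 and 593 in WT, and 1172 and 877 in place of 1719 and 575 in β8ITG-cKO. Cd44 and Hyal2 in WT and Cd44 in β8ITG-cKO were still called higher.

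Has1, whose product is the least active of the synthases in cultured cells, had the highest FPKM of the synthase genes in every condition. It was at 1.96, 2.16 and 1.82 FPKM in WT 0 h, 1.34, 2.06 and 1.24 in WT 24 h, 1.20, 1.62 and 2.41 in β8ITG-cKO 0 h and 1.66, 1.83 and 1.45 FPKM in β8ITG-cKO 24 h libraries. All 4 groups overlapped. By limma-trend the change with time was -0.24 on the log2(FPKM + 1) scale in WT (95% interval -0.66 to 0.18, adjusted p = 0.351). In β8ITG-cKO LCs it was -0.03 (95% interval -0.44 to 0.38, adjusted p = 0.905). The deposited Has1 locus runs to base 17866291 of chromosome 17, while the gene stops at 17855205 in the GENCODE annotation. What the further stretch adds to the FPKM of Has1 is not known here.

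Has2, the synthase of very long chains that development and wound repair depend on, was listed at 0 in all 3 WT 0 h libraries and stood at 0.76, 0.80 and 0.33 FPKM in the WT 24 h libraries. Its β8ITG-cKO values were 0.13, 0.09 and 0.15 FPKM in the 0 h and 0.59, 0.39 and 0.25 FPKM in the 24 h libraries. Every 24 h library thus lay above every 0 h library in both genotypes, at levels below 1 FPKM. Its mean was under the filter in both fits. With no filter, the log2(FPKM + 1) change was 0.69 in WT (standard error 0.13, adjusted p = 0.0255) and 0.32 in β8ITG-cKO (standard error 0.10, adjusted p = 0.061), and no ratio is given for WT because its 0 h values are all 0. Has2 did pass the filter in the comparison of genotypes at 24 h, where the libraries overlapped and the difference, β8ITG-cKO minus WT, was -0.20 (95% interval -0.65 to 0.24, adjusted p = 0.608). Has2os, the antisense RNA that overlaps the Has2 locus on the opposite strand, was listed at 0 in all 12 libraries.

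Has3, which makes shorter chains, was at 0.54, 0.54 and 0.87 FPKM in WT 0 h, 0.65, 0.46 and 0.41 in WT 24 h, 0.59, 0.76 and 0.62 in β8ITG-cKO 0 h and 0.70, 0.33 and 0.46 FPKM in β8ITG-cKO 24 h libraries. The groups overlapped throughout. Its change was -0.13 in WT (95% interval -0.55 to 0.29, adjusted p = 0.62) and -0.15 in β8ITG-cKO LCs (95% interval -0.50 to 0.19, adjusted p = 0.43). The end of Has3 in the GENCODE annotation overlaps Chtf8 on the opposite strand, a gene at 8.35 to 22.61 FPKM over the 12 libraries, and whether the counting used strand is not given in the sources used here.

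Cd44 encodes the main cell surface receptor of hyaluronan and was called in both genotypes. It lies on the minus strand of chromosome 2 from 102811141 to 102901669 (mm10, as the tables give it), with up to 19 exons per transcript in the GENCODE annotation. It was at 58.63, 54.56 and 61.20 FPKM in WT 0 h libraries, at 148.87, 163.43 and 126.97 FPKM in WT 24 h libraries, at 27.62, 41.60 and 34.78 FPKM in β8ITG-cKO 0 h libraries and at 114.94, 103.50 and 101.25 FPKM in β8ITG-cKO 24 h libraries. No library of any group overlapped another group, and the order was β8ITG-cKO 0 h, WT 0 h, β8ITG-cKO 24 h, WT 24 h from lowest to highest. In WT LCs Cd44 rose 2.52-fold, the mean being 58.1 ± 3.35 FPKM at first and 146 ± 18.4 FPKM a day later (SD, n = 3 each), or by 1.31 on the log2(FPKM + 1) scale (standard error 0.15, limma-trend adjusted p = 0.00117). In β8ITG-cKO LCs it rose 3.07-fold, between means of 34.7 ± 6.99 and 107 ± 7.34 FPKM (SD, n = 3 each), or by 1.61 (standard error 0.15, limma-trend adjusted p = 0.000139). After rescaling to the same median these changes were 1.05 and 1.31. The FPKM sums all transcripts of the gene, of which the annotation holds 9, so standard and variant CD44 isoforms are not separated.

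Leukocytes also carry CD44, and some of their genes were higher at 24 h as well. The summed FPKM of 9 macrophage and hyalocyte genes, none of them at 0 in a whole group, lay between 9.4 and 18.6 in WT 0 h, 34.7 and 44.9 in WT 24 h, 9.6 and 15.4 in β8ITG-cKO 0 h and 34.2 and 53.7 in β8ITG-cKO 24 h libraries. Of the 9, 5 had a higher mean at 24 h in WT (Itgam, Cd68 and Ptprc without overlap, Lyz2 and Adgre1 with overlap) and 4 a lower one, all with overlap (Csf1r, C1qa, C1qb and Mrc1), while all 9 had a higher mean at 24 h in β8ITG-cKO. Ptprc, the pan-leukocyte marker CD45, was at 0.33, 0.13 and 0.03 FPKM in WT 0 h and at 1.27, 1.34 and 1.26 FPKM in WT 24 h libraries. The 9 neutrophil genes summed to 0.3 to 0.7 FPKM in WT 0 h, 36.8 to 53.7 in WT 24 h, 0.2 to 1.5 in β8ITG-cKO 0 h and 8.8 to 25.0 FPKM in β8ITG-cKO 24 h libraries, where S100a9 and S100a8 made up most of the 24 h sums. In WT, every 0 h library listed S100a9 at 0, and the 24 h libraries held 30.68, 19.28 and 24.15 FPKM of it, while Ly6g, Mpo and Elane were listed at 0 in all 12. The part of these cells in the rise of Cd44 was not tested.

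Breakdown of hyaluronan was represented by the genes of the lysosomal enzyme Hyal1 and of Hyal2, which sits on the cell surface through a lipid anchor and cuts long chains into pieces. They lie side by side on the plus strand of chromosome 9, Hyal2 from 107567886 to 107572778 and Hyal1 from 107576952 to 107580137. Hyal2 was at 1.46, 1.78 and 1.54 FPKM in WT 0 h libraries and at 5.36, 3.98 and 3.67 FPKM in WT 24 h libraries, against 2.79, 3.14 and 3.41 FPKM in β8ITG-cKO 0 h and 3.78, 5.41 and 3.67 FPKM in β8ITG-cKO 24 h libraries. The groups of each genotype did not overlap in time, and at 24 h the genotypes covered almost the same range. In WT LCs Hyal2 rose 2.72-fold, between means of 1.6 ± 0.168 and 4.33 ± 0.9 FPKM (SD, n = 3 each), or by 1.03 on the log2(FPKM + 1) scale (standard error 0.18, limma-trend adjusted p = 0.00496). In β8ITG-cKO LCs its mean went from 3.11 ± 0.312 to 4.29 ± 0.974 FPKM (SD, n = 3 each), and the change of 0.35 did not pass the threshold (95% interval 0.00 to 0.70, adjusted p = 0.0958), or 0.11 after rescaling (adjusted p = 0.594).

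Hyal1 had the opposite sign. It was at 3.76, 3.35 and 3.30 FPKM in WT 0 h, 2.52, 3.03 and 2.38 in WT 24 h, 3.70, 4.22 and 4.15 in β8ITG-cKO 0 h and 3.43, 3.23 and 2.90 FPKM in β8ITG-cKO 24 h libraries. Within each genotype every 24 h library lay below every 0 h library. The change was -0.30 in WT (95% interval -0.65 to 0.06, adjusted p = 0.178) and -0.26 in β8ITG-cKO LCs (95% interval -0.52 to 0.00, adjusted p = 0.0882), neither past the threshold. With libraries rescaled to the same median it was -0.50 in both, with adjusted p = 0.0332 in WT and 0.0138 in β8ITG-cKO by limma-trend, and its fold then stayed under the size limits for a call. Naa80 and Hyal3 overlap the end of Hyal1 on the same strand in the annotation, and how the reads were shared among them is not known here. Hyal3 itself was at 0.03 to 0.59 FPKM.

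The start regions of Cd44 and Hyal2, the genes called with time, and of Hyal1, the neighbour of Hyal2 that was not called, are printed here because they are where short transcription factor motifs were sought. They are RefSeq sequences of GRCm38.p6, 250 bases before to 50 after the gene start, printed in the direction of transcription, and capitals mark every match to 7 motifs on either strand: TGANTCA (AP-1), GGG and CC 5 bases apart (NF-kB), CAGAC (SMAD), GGAATG (TEAD), GGGCGG (SP1), TTGCNNAA (C/EBP) and TATAAA (the core promoter box). The windows are chr2:102901616-102901915 (minus strand) for Cd44, chr9:107568913-107569212 (plus strand) for Hyal2 and chr9:107576700-107576999 (plus strand) for Hyal1.
Cd44: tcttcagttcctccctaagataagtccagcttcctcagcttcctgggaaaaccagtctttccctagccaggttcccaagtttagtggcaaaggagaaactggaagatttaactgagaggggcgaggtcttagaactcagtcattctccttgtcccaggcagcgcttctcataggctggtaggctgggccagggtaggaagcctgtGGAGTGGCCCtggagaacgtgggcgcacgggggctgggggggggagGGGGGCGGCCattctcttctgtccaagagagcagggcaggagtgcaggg
Hyal2: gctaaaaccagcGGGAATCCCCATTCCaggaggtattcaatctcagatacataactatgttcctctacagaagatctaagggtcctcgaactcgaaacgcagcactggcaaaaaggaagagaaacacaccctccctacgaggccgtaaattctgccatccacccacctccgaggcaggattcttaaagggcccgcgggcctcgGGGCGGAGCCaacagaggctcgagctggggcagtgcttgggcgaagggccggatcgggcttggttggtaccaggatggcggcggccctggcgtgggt
Hyal1: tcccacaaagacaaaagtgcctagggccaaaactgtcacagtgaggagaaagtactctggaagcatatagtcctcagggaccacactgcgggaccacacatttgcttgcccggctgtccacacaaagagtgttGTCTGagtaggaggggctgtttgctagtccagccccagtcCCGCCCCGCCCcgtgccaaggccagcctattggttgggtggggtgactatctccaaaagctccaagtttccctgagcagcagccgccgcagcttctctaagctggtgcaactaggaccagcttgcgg
The Cd44 window held 2 NF-kB matches, the second of which contains its SP1 match, and no match to the other 5. The Hyal2 window held 2 NF-kB matches, 1 of them overlapping by a base a TEAD match and the other containing an SP1 match. The Hyal1 window held a SMAD match on the reverse strand and 2 overlapping SP1 matches. Over all 32851 promoters in the RefSeq table, 50.8% held the NF-kB letters, 35.7% the SP1 letters, 49.6% the SMAD letters and 14.7% the TEAD letters, so these are common strings. The rarer AP-1 letters, found in 7.8% of promoters, occurred once among the 6 genes with an entry, at base -142 of Tnfaip6, and TATAAA, in 13.6%, in none. The C/EBP letters, in 10.8%, were found once, across the start of Has1. The entries covered 6 of the 8 genes, Has2 and Has3 being the others. The Hyal2 window lies inside the Hyal2 locus of the tables, which begins upstream of it.

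Vcan encodes versican, the large proteoglycan that binds hyaluronan through its head domain, and Tnfaip6 encodes TSG-6, an inflammation-induced protein that crosslinks hyaluronan. Vcan was at 17.10, 27.64 and 15.87 FPKM in WT 0 h, 12.77, 14.95 and 33.23 in WT 24 h, 19.68, 9.64 and 16.80 in β8ITG-cKO 0 h and 15.68, 9.84 and 19.76 FPKM in β8ITG-cKO 24 h libraries. Single libraries spread more within a group than the group means differed, and all groups overlapped. Its change was -0.07 in WT (95% interval -0.90 to 0.76, adjusted p = 0.896) and -0.02 in β8ITG-cKO LCs (95% interval -0.72 to 0.67, adjusted p = 0.962). The highest value was in WT 24 h replicate 3. That library also had the highest level of the epithelial keratin Krt15, 46.38 FPKM against at most 9.07 FPKM in the other libraries. Krt15 is 1 of 7 corneal epithelium genes listed, of which Krt5 (6.88 FPKM) and Krt14 (2.12 FPKM) were also highest there. Krt12 (0.00), Krt6a (2.95), Aldh3a1 (392.09) and Clu (1082.66 FPKM) were not. The 7 summed to 1533.1 FPKM there and to 1158.8 and 908.4 FPKM in WT 24 h replicates 1 and 2. In WT 0 h libraries they summed to 1753.3 to 1837.3 FPKM. The highest WT 0 h value of Vcan came in replicate 2, where the retinal genes summed to 1136.8 FPKM. The part of other cells in the spread of Vcan was not tested. Tnfaip6 was listed at 0, 0 and 0.12 FPKM in WT 0 h, 0.03, 0 and 0.02 in WT 24 h, 0, 0 and 0.02 in β8ITG-cKO 0 h and 0.02, 0.05 and 0.39 FPKM in β8ITG-cKO 24 h libraries. It passed the filter in no comparison, and with no filter its change was -0.03 in WT (adjusted p = 0.71) and 0.18 in β8ITG-cKO LCs (adjusted p = 0.347).

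The next question was whether the genotypes differed. At 0 h PCS none of the 6 genes tested was called, where 1.35% of all 14708 genes tested were called higher and 1.18% lower in β8ITG-cKO. By adjusted p alone, which 4.18% of all genes passed as higher and 2.75% as lower, Hyal2 was higher and Cd44 lower in β8ITG-cKO LCs. Cd44 had a difference, β8ITG-cKO minus WT, of -0.75 (standard error 0.15, 95% interval -1.10 to -0.40, adjusted p = 0.0294), and its means differed 1.68-fold, under the size limit. Hyal2 had a difference of 0.66 (standard error 0.13, 95% interval 0.36 to 0.97, adjusted p = 0.0285), with means that differed 1.95-fold and by less than 2 FPKM. The libraries of the genotypes did not overlap for either gene. With 1 library left out, Cd44 kept an adjusted p under 0.05 only without WT 0 h replicate 2 or β8ITG-cKO 0 h replicate 2, and Hyal2 only without WT 0 h replicate 2, and leaving out any other library of the comparison raised it to as much as 0.11 and 0.125, both without β8ITG-cKO 0 h replicate 3. With no filter it was 0.0891 and 0.0823, and with the replicate block 0.077 and 0.0847.

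At 24 h PCS none of the 7 genes tested was called, against 3.37% higher and 0.286% lower in β8ITG-cKO among all 15366. By limma-trend with no adjustment for the number of genes, 3137 of all 15366 had a p under 0.05, as did 1 of the 7, Cd44. Its difference was -0.45 (standard error 0.15, 95% interval -0.80 to -0.10, adjusted p = 0.139), a mean 1.37-fold lower in β8ITG-cKO, with all 3 libraries below all 3 of WT. For Hyal2 the difference was -0.02 (95% interval -0.46 to 0.43, adjusted p = 0.975), for Hyal1 0.20 (95% interval -0.13 to 0.54, adjusted p = 0.483) and for Vcan -0.33 (95% interval -1.21 to 0.54, adjusted p = 0.672). This comparison and the change with time in WT share the WT 24 h libraries.

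**Figure D2:**
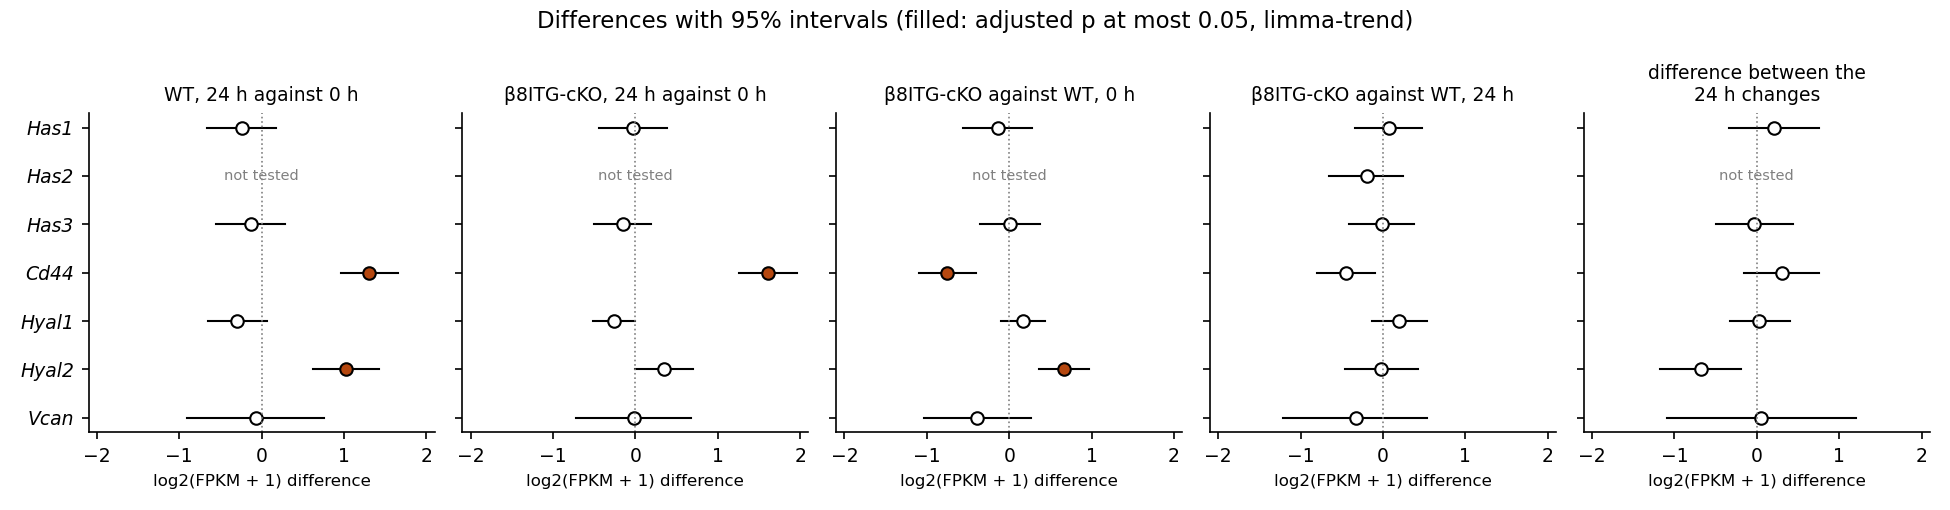
Differences on the log2(FPKM + 1) scale (horizontal axes) with 95% intervals for the 7 genes tested in at least 1 comparison, in each of the 4 comparisons and for the difference between the 24 h changes of the genotypes; filled points passed 0.05 in limma-trend after adjustment. The filled points are Cd44 in both genotypes with time, Hyal2 in WT with time, and Cd44 (-0.75) and Hyal2 (0.66) between genotypes at 0 h.

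Whether the change with time itself differed between the genotypes was tested as an interaction in 1 fit over all 12 libraries. None of the 6 genes tested passed, where 9.39% of all 15262 did. Hyal2 came nearest, with a change in β8ITG-cKO LCs smaller by 0.68 on the log2 scale, or -0.68 (95% interval -1.17 to -0.19, adjusted p = 0.0849). The difference between its changes lay in the 0 h libraries, where the means were 1.6 and 3.11 FPKM, more than in those of 24 h, at 4.33 and 4.29 FPKM. For Cd44 the interaction was 0.30 (95% interval -0.16 to 0.76, adjusted p = 0.431), for Has1 0.21, for Vcan 0.05, for Hyal1 0.03 and for Has3 -0.03.

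The rest of the pathway was covered by 47 further gene symbols in 7 groups, of which 46 were in the tables and the other, Cemip2, is a second name of Tmem2. In WT LCs, where 10.3% of all genes tested were called higher at 24 h and 3.92% lower, 25 passed the filter. Of these, 11 were called higher and none lower. The median of their log2 changes was 0.60, against 0.16 for all genes tested. In β8ITG-cKO LCs, where 11.3% of all genes tested were called higher and 3.77% lower, 26 passed, 9 were called higher and none lower. Their median was 0.44 against 0.23. With rescaled libraries 10 were called in WT, all higher, and 10 in β8ITG-cKO LCs, of which 8 were higher and 2 (Gusb and Adamts4) lower. Without WT 0 h replicate 3, Adamts1 was called lower in WT. By adjusted p alone, which 35.4% of all genes passed as higher and 10.7% as lower in β8ITG-cKO, 12 were higher and 5 lower.

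Of 7 genes that supply the sugar nucleotides from which hyaluronan is built, all tested, 4 were called higher with time in WT and 1 in β8ITG-cKO LCs, and none lower. Over all genes tested, 10.3% were called higher in WT and 11.3% in β8ITG-cKO LCs. Ugdh, which makes UDP-glucuronic acid, was at 2.64, 2.27 and 3.36 FPKM in WT 0 h and at 8.87, 13.11 and 4.76 FPKM in WT 24 h libraries, and at 2.81, 2.37 and 3.37 and then 8.85, 8.55 and 8.94 FPKM in β8ITG-cKO LCs. It rose by 1.32 in WT (standard error 0.31, adjusted p = 0.0174) and by 1.35 in β8ITG-cKO LCs (standard error 0.12, limma-trend adjusted p = 0.000125), with WT 24 h replicate 3 the lowest of the 24 h libraries. Its WT call was lost with no filter (adjusted p = 0.0607), without WT 0 h replicate 1 (0.0573) and without WT 0 h replicate 2 (0.0572).

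On the hexosamine side, the WT rises were 1.32 for Gfpt2 (adjusted p = 0.00536), whose enzyme opens the route to UDP-N-acetylglucosamine, 0.97 for Gnpnat1 (adjusted p = 0.0186), which acetylates glucosamine phosphate, and 1.39 for Pgm3 (adjusted p = 0.00248), which acts on the acetylated product. The WT call of Gnpnat1 was lost with no filter (adjusted p = 0.0552), without WT 0 h replicate 2 (0.0611) and without WT 0 h replicate 3 (0.0561), and through the size limits with rescaled libraries (log2 change 0.72) and without WT 24 h replicate 2 (0.72). The corresponding values in β8ITG-cKO LCs were 0.83 for Gfpt2 (adjusted p = 0.0965), 0.41 for Gnpnat1 (adjusted p = 0.0415, under the size limit) and 0.20 for Pgm3 (adjusted p = 0.512). Gfpt2 was called in β8ITG-cKO LCs as well with the replicate block (adjusted p = 0.0253) and without β8ITG-cKO 24 h replicate 2 (1.25, adjusted p = 0.00599). Pgm3 was at 3.20, 2.84 and 2.77 FPKM in WT 0 h and 8.22, 12.45 and 7.73 in WT 24 h libraries, against 2.98, 4.32 and 6.78 in β8ITG-cKO 0 h and 4.72, 5.23 and 6.02 FPKM in β8ITG-cKO 24 h libraries. The WT groups were apart and the β8ITG-cKO groups overlapped, and the difference between the changes was -1.19 (standard error 0.32, adjusted p = 0.0402), and the adjusted p was above 0.05 when any of 10 of the 12 libraries was left out. Uap1, which makes UDP-N-acetylglucosamine itself, changed by 0.60 (adjusted p = 0.0319) and 0.58 (adjusted p = 0.0169), under the size limit in both genotypes. Gfpt1, the more widely expressed form of the first hexosamine enzyme, was at 7.27 to 11.64 FPKM over the 12 libraries and changed by 0.26 (adjusted p = 0.224) and 0.10 (adjusted p = 0.42).

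Among the other receptors, 3 of 5 were tested and 1 was called, higher in both genotypes. Of all genes tested, 10.3% in WT and 11.3% in β8ITG-cKO LCs were called higher. Layn encodes layilin, a small hyaluronan receptor, and was at 3.43, 1.95 and 4.03 FPKM in WT 0 h and at 14.27, 13.55 and 16.78 FPKM in WT 24 h libraries, and at 1.72, 2.71 and 2.78 and then 13.15, 12.43 and 9.35 FPKM in β8ITG-cKO LCs. It rose 4.74-fold in WT (log2 change 1.97, adjusted p = 0.000992) and 4.84-fold in β8ITG-cKO LCs (log2 change 1.90, adjusted p = 0.000139), with no overlap in time. Hmmr, the receptor RHAMM that also works on the mitotic spindle, was at 3.87, 0.27 and 0.01 FPKM in WT 24 h libraries, in which the proliferation marker Mki67 was at 26.98, 4.46 and 1.31 FPKM, and at 0.86, 2.21 and 2.51 FPKM in β8ITG-cKO 24 h libraries, in which Mki67 was at 10.41, 21.56 and 25.21 FPKM. The 3 libraries of each 24 h group ranked alike for both genes, and those of the 0 h groups did not. The change of Hmmr was not past the threshold in either genotype (adjusted p = 0.758 and 0.187). Lyve1, the lymphatic receptor, stayed at 0.92 FPKM or less and Stab2 at 0.04 FPKM or less.

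Of the genes that work with CD44 inside and outside the cell, 4 of 6 were called higher in each genotype. The share of all genes tested that was called higher was 10.3% in WT and 11.3% in β8ITG-cKO LCs. Ezrin, radixin and moesin tie the CD44 tail to actin. Msn (moesin) was at 13.20, 12.80 and 8.65 FPKM in WT 0 h and 232.26, 276.48 and 129.64 FPKM in WT 24 h libraries, and at 13.02, 12.82 and 12.24 and then 140.43, 163.19 and 132.06 FPKM in β8ITG-cKO LCs. It rose 18.4-fold in WT (log2 change 4.04, standard error 0.29, adjusted p = 0.000199) and 11.4-fold in β8ITG-cKO LCs (log2 change 3.41, standard error 0.10, adjusted p = 1.85e-06), with no overlap in time. Ezr (ezrin) had means of 170 ± 8.25 FPKM at 0 h and 132 ± 17.8 FPKM at 24 h in WT (SD, n = 3 each), a difference of -0.36 on the log2 scale (adjusted p = 0.119), and of 147 ± 7.81 and 107 ± 13.5 FPKM in β8ITG-cKO LCs (SD, n = 3 each), a difference of -0.46 (limma-trend adjusted p = 0.0141, under the size limit). Rdx (radixin) stayed at 28.36 to 42.15 FPKM over the 12 libraries, with changes of 0.04 and 0.13. Msn was thus the lowest of the 3 genes in every 0 h library and the highest in every 24 h library.

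The CD44 ligand genes Spp1 (osteopontin) and Srgn (serglycin, a proteoglycan of blood cell granules) rose from near 0. Spp1 was at 1.22, 0.42 and 0.18 FPKM in WT 0 h and 28.76, 19.75 and 11.03 FPKM in WT 24 h libraries, and in β8ITG-cKO LCs at 0.19, 0 and 0.14 and then 20.26, 28.44 and 24.00 FPKM. Srgn was at 0.87, 0.45 and 0.18 FPKM and then 26.52, 26.70 and 18.99 FPKM in WT, and at 0.31, 0.59 and 0.09 and then 18.72, 12.63 and 19.49 FPKM in β8ITG-cKO LCs. The log2 changes were 3.65 and 4.50 for Spp1 and 4.07 and 3.75 for Srgn, in WT and β8ITG-cKO in turn, the highest adjusted p being 0.000656. Leukocytes also express both genes, and their part was not tested here either. Mmp14, the membrane protease that sheds CD44, rose 2.99-fold in WT (log2 change 1.41, adjusted p = 0.000576) and 3.59-fold in β8ITG-cKO LCs (log2 change 1.57, adjusted p = 0.000118).

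**Figure D3:**
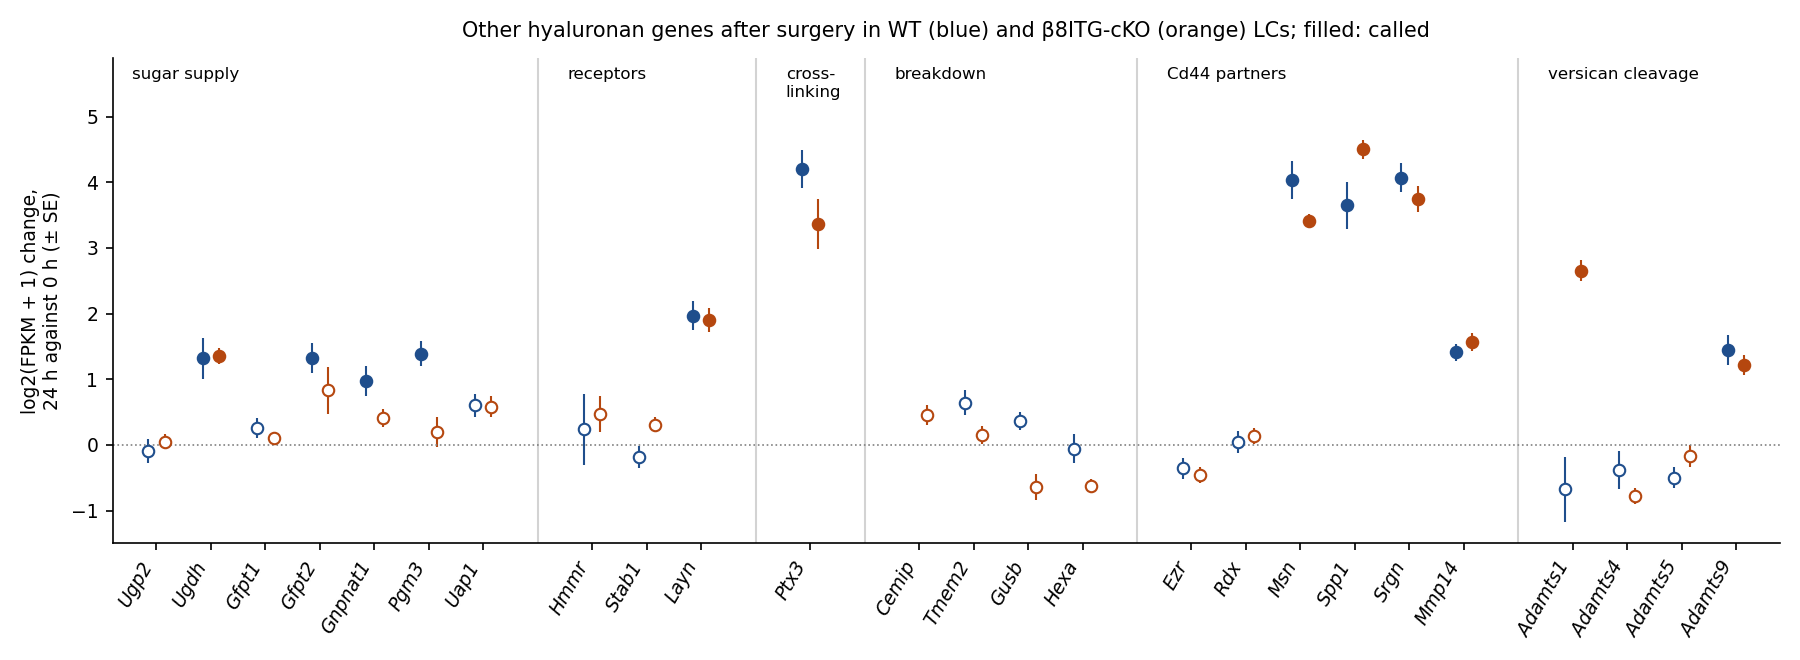
Change in log2(FPKM + 1) from 0 h to 24 h PCS with its standard error (vertical axis) for 25 of the 26 further hyaluronan genes tested in at least 1 genotype, by group, in WT (blue) and β8ITG-cKO (orange) LCs; filled points were called. The largest changes are those of Ptx3, Msn, Spp1 and Srgn, between 3.37 and 4.50, while the breakdown genes have no filled point.

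Ptx3 (pentraxin 3), which joins TSG-6 and the inter-alpha-inhibitor heavy chains in crosslinking hyaluronan, was the only gene of its group of 7 above the filter. It was at 1.73, 0.46 and 1.20 FPKM in WT 0 h and at 27.44, 35.24 and 51.28 FPKM in WT 24 h libraries, and at 0.13, 0.02 and 0.64 and then 21.02, 12.03 and 6.31 FPKM in β8ITG-cKO LCs. It rose by 4.20 in WT (standard error 0.29, adjusted p = 0.000169) and by 3.37 in β8ITG-cKO LCs (standard error 0.38, adjusted p = 0.000333). The heavy chain genes Itih1 to Itih5 and Ambp, whose product carries the chains, stayed at 0.80 FPKM or less in every library, as Tnfaip6 did at 0.39. The other hyalectans Acan, Bcan and Ncan and the link protein genes Hapln1 to Hapln4, which fasten hyalectans to hyaluronan, reached 0.48 FPKM at most, and none of the 7 was tested, so Vcan was the only hyalectan gene with more than trace FPKM.

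Of the other breakdown genes, none was called with time in either genotype on the values as deposited. Tmem2, a cell surface hyaluronidase, was at 6.75, 6.15 and 7.0 FPKM in WT 0 h and 14.24, 10.34 and 8.76 FPKM in WT 24 h libraries, a change of 0.64 (adjusted p = 0.0358, under the size limit), and changed by 0.15 in β8ITG-cKO LCs (adjusted p = 0.41). Tmem2 thus had higher FPKM than Hyal1 and Hyal2 in every library. The lysosomal exoglycosidase genes Gusb and Hexa, whose enzymes trim the pieces hyaluronidases leave, were lower at 24 h in β8ITG-cKO LCs by adjusted p alone, with changes of -0.64 for Gusb (adjusted p = 0.0325) and -0.62 for Hexa (adjusted p = 0.00167). With rescaled libraries Gusb was called lower (-0.91, adjusted p = 0.00677). In WT LCs the values were 0.36 (adjusted p = 0.0954) and -0.06 (adjusted p = 0.863). Gusb was the gene called higher in β8ITG-cKO LCs at 0 h, at 8.60, 11.56 and 10.75 FPKM against 4.77, 5.05 and 5.56 FPKM in WT, a difference of 0.88 (standard error 0.13, adjusted p = 0.0145), and Hexa was higher there by 0.62 (adjusted p = 0.0272, under the size limit). The means of Gusb differed 2.01-fold, close to the size limit, and its call was lost with rescaled libraries and without WT 0 h replicate 1 (adjusted p = 0.0584), WT 0 h replicate 2, β8ITG-cKO 0 h replicate 2 (0.0548) or β8ITG-cKO 0 h replicate 3 (0.0788).

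Versican is cut by proteases of the ADAMTS family, and 4 of the 6 listed were tested. Adamts9 was called higher with time in both genotypes, by 1.44 in WT (adjusted p = 0.00398) and by 1.22 in β8ITG-cKO LCs (adjusted p = 0.000589), where the call was lost through the size limits with rescaled libraries and without β8ITG-cKO 24 h replicate 1. Adamts1 was at 44.44, 25.10 and 8.41 FPKM in WT 0 h and 12.27, 15.22 and 11.55 FPKM in WT 24 h libraries, against 1.39, 2.28 and 1.64 FPKM in β8ITG-cKO 0 h and 19.25, 15.50 and 14.40 FPKM in β8ITG-cKO 24 h libraries. The genotypes were far apart at 0 h and overlapped at 24 h. It was called lower in β8ITG-cKO LCs at 0 h, by -3.02 (standard error 0.49, adjusted p = 0.0171), a call lost with no filter (0.0797) and without β8ITG-cKO 0 h replicate 1 (0.0534), 2 (0.0538) or 3 (0.0788). It was called higher with time in β8ITG-cKO LCs, by 2.65 (standard error 0.16, adjusted p = 2.38e-05), with no change past the threshold in WT (-0.68, adjusted p = 0.328) unless WT 0 h replicate 3 was left out (-1.31, adjusted p = 0.0191, called lower). Genes of other cells differed between the 0 h groups too. The summed FPKM of 5 red blood cell genes was 152.5, 73.7 and 68.0 in WT 0 h libraries and 6.5 to 15.8 in β8ITG-cKO 0 h libraries, against 36.0 to 219.7 and 87.4 to 195.1 at 24 h. That of 6 genes of iris and ciliary pigment cells was 84.0, 28.3 and 19.9 in WT 0 h and 11.5 to 15.5 in β8ITG-cKO 0 h libraries, against 27.5 to 33.3 and 12.7 to 23.9 at 24 h, with no gene of either list at 0 in a whole group. The part of these cells in the 0 h difference of Adamts1 was not tested. Adamts4 was at 8.91 to 24.11 FPKM over the 12 libraries and changed by -0.38 in WT (adjusted p = 0.354) and by -0.78 in β8ITG-cKO LCs (adjusted p = 0.00166, under the size limit), or by -1.06 with rescaled libraries, where it was called lower (adjusted p = 0.000482). Adamts5 was at 2.78 to 6.45 FPKM and changed by -0.50 (adjusted p = 0.0521) and -0.17 (adjusted p = 0.456).

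Between the genotypes, the further genes gave 2 calls at 0 h, Gusb higher and Adamts1 lower, among 23 tested. The median difference was 0.04 against 0.02 for all genes. The shares of all genes called higher and lower were 1.35% and 1.18% at 0 h and 3.37% and 0.286% at 24 h. At 24 h none of 26 was called by limma-trend, 6 had an unadjusted p under 0.05, as did 3137 of all 15366 genes, and the median was -0.04 against 0.03. The lowest adjusted p at 24 h belonged to Ptx3, with a difference of -1.56 (standard error 0.40, adjusted p = 0.0668) and every β8ITG-cKO library below every WT library, and to Pgm3, with -0.71 (standard error 0.19, adjusted p = 0.0846). Ptx3 was called in 1 fit over all 4 groups (adjusted p = 0.0226) and without β8ITG-cKO 24 h replicate 1 (adjusted p = 0.034). Its interaction was -0.82 (adjusted p = 0.383). Of the 25 genes tested for an interaction, 3 passed, where 9.39% of all genes did, negative for Pgm3 (-1.19) and Gusb (-1.0), and positive for Adamts1 (3.33).

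**Figure D4:**
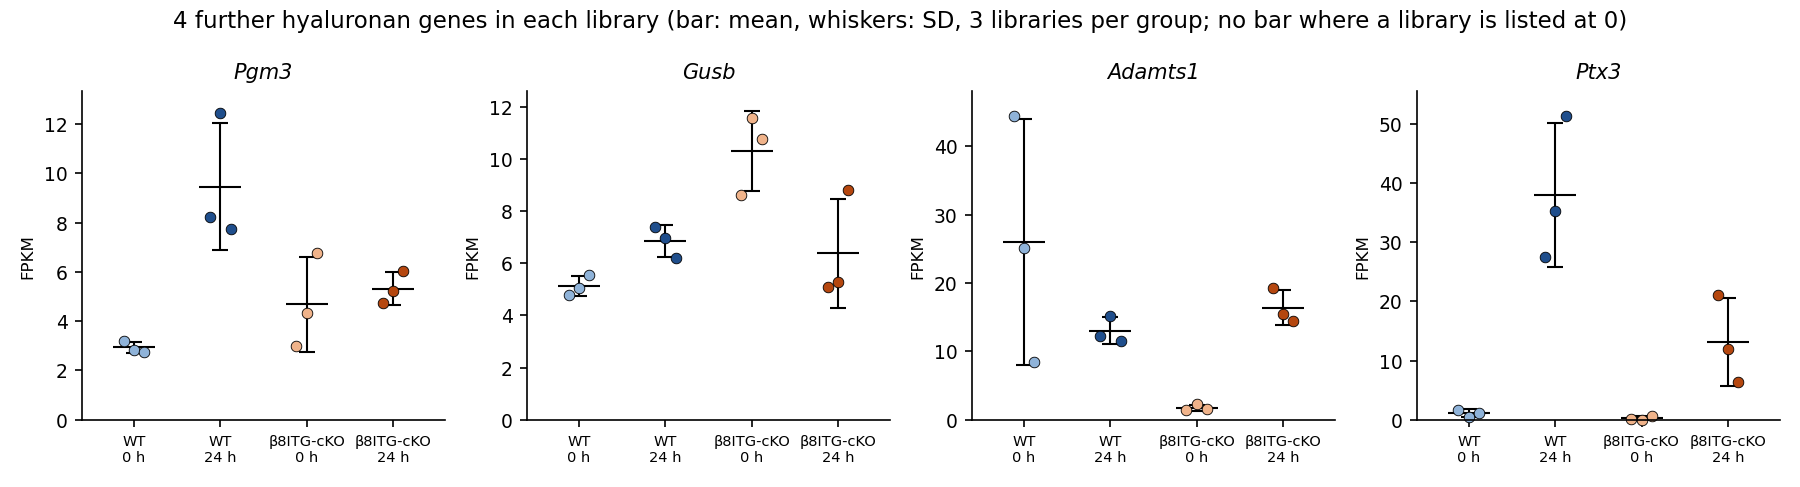
FPKM of Pgm3, Gusb, Adamts1 and Ptx3 (vertical axes, linear, from 0) in the 3 libraries of each condition (points), with mean (bar) and SD (whiskers). Pgm3 is at 7.73 to 12.45 FPKM in WT 24 h libraries, Gusb starts from 8.60 to 11.56 FPKM in β8ITG-cKO 0 h libraries, Adamts1 is at 1.39 to 2.28 FPKM in β8ITG-cKO 0 h libraries, and Ptx3 is lower in all β8ITG-cKO 24 h libraries than in WT.

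Genes whose pattern over the 12 libraries was most like that of a member were sought among 10880 genes averaging 2 FPKM or more, by Pearson correlation on log2(FPKM + 1). The libraries fall into 2 times and 2 genotypes, and each shares its depth and scaling over all genes, so these values are descriptions. For Cd44 the nearest were Pgm1 (0.986), Anxa7 (0.986) and Lrrfip1 (0.983), and for Hyal2 they were Htra2 (0.970), Dcbld2 (0.966) and Nup35 (0.954). For Hyal1 they were Atg13 (0.932), Kctd15 (0.918) and Egfl7 (0.914). For Vcan the nearest reached 0.882 (Hopx), 0.879 (Iqgap2) and 0.878 (Pon3), lower than for the others.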

How the data were processed

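The authors deposited 4 tables, 1 per pair of conditions, with FPKM per gene and library, as Cuffdiff gave them from stranded total RNA libraries. The submitters' processing notes name FastQC, cutadapt 1.12, TopHat2 2.1.0, Cuffdiff 2.2.1 and mm10 (GRCm38.p5); the strand setting is not given in the sources used here. The FPKM of a library were the same in both tables that held it. The tables also hold 16 value columns that belong to no single library, 8 of them the authors' group averages, and the authors' fold changes, p-values and q values, none used here. The 3 libraries per condition are described as biological replicates, each of pooled capsules. The p-values set a difference between groups against the spread between such pools, not between single mice.

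Pairs of conditions were compared with limma 3.58.1 (trend, eBayes) in R 4.3.3 on log2(FPKM + 1), for genes averaging 0.5 FPKM or more, with Benjamini-Hochberg adjustment, and the interaction over all 12 libraries. The fits were tested on simulated data. Calls used the size limits given above. The pseudocount understates changes of low genes. Positions are those of the tables, counted from 1, compared with GENCODE M21 (GRCm38). Promoters are those of RefSeq (GRCm38.p6). Tables and figures used Python 3.11.15, pandas 2.3.3, numpy 2.4.6 and matplotlib 3.10.9.

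Named genes are the 8 members, genes of the 47 others that were called or reached 10 FPKM in a condition, and the 3 genes most like each member of at least 2 FPKM; others named in a group illustrate it and were chosen after their values were seen. Values for 1 of the 47 are not reported here, though group counts include it. Marker lists of other cell types are given where they touch a result. The members, lists and tests were chosen with earlier results of these data known. Alternatives were a pseudocount of 0.1 FPKM, no filter, rescaling to 1 common median (of genes averaging 2 FPKM or more), a replicate block, 1 fit over all 4 groups, the adjusted p alone and each library left out.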

Additional observations from a re-analysis of the deposited data

Results flagged for a closer look

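Of the 25 further hyaluronan genes tested, 3 are given here because the test of the difference between the genotypes' changes from 0 h to 24 h PCS (limma-trend over 12 libraries) passed the threshold, as it did for 9.39% of all 15262 genes. Pgm3 had an interaction of -1.19 on the log2(FPKM + 1) scale (adjusted p = 0.0402). Over the alternatives its adjusted p was lowest without β8ITG-cKO 0 h replicate 1 (0.0216) and highest without β8ITG-cKO 24 h replicate 1 (0.0899), and it was above 0.05 with no filter (0.0826), with the replicate block (0.056) and without any library other than WT 24 h replicate 3 and β8ITG-cKO 0 h replicate 1. Gusb had an interaction of -1.0 (adjusted p = 0.031), with a range of 0.0137, without β8ITG-cKO 24 h replicate 3, to 0.081, without β8ITG-cKO 0 h replicate 2. It was above 0.05 with no filter (0.0591) and without any library other than WT 0 h replicate 3, WT 24 h replicate 3, β8ITG-cKO 0 h replicate 1 and β8ITG-cKO 24 h replicate 3. Adamts1 had an interaction of 3.33 (adjusted p = 0.00815), past the threshold in every alternative tried, at 0.000396 to 0.0252. Its 3 WT 0 h libraries spread from 8.41 to 44.44 FPKM.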

How the results depend on the processing

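Counts of called members held under the alternatives tried: 2 in WT and 1 in β8ITG-cKO LCs over time, and 0 between genotypes at 24 h and for the interaction; at 0 h it was 0, or 2 by adjusted p alone. For the further genes, the count over time in β8ITG-cKO LCs was 17 by adjusted p alone in place of 9, and 10 rescaled, with Gusb and Adamts4 lower and Adamts9 lost. Between genotypes at 24 h it was 1 (Ptx3) in 1 fit over all 4 groups, and 0 to 1 with 1 library left out. At 0 h it was 1 in place of 2 with no filter (Gusb) or rescaled libraries (Adamts1), and 0 to 2 with 1 library left out, 0 without β8ITG-cKO 0 h replicate 2 or 3. The sign turned only for members not past the threshold. With 1 library left out, the log2 change ran from -0.48 to 0.18 for Vcan with time in WT, -0.18 to 0.14 for Has1 and -0.30 to 0.24 for Vcan with time in β8ITG-cKO, between genotypes at 24 h from -0.02 to 0.21 for Has1, -0.06 to 0.07 for Has3, -0.16 to 0.12 for Hyal2 and -0.59 to 0.07 for Vcan, at 0 h from -0.31 to 0.01 for Has1 and -0.04 to 0.10 for Has3 (-0.01 rescaled), and for the interaction from -0.12 to 0.06 for Has3, -0.02 to 0.11 for Hyal1 and -0.23 to 0.45 for Vcan. Over all genes, adjusted p alone gave 4500, 7030, 966 and 1020 calls (WT time, β8ITG-cKO time, 24 h, 0 h) in place of 2159, 2294, 562 and 371; at 0 h it was 130 with no filter and 206, 214 and 125 without WT replicate 1, β8ITG-cKO replicate 2 and β8ITG-cKO replicate 3, at 24 h 371 without β8ITG-cKO replicate 2, and the interaction gave 688 to 1921 in place of 1433 with 1 library left out. Samples with the same replicate number did not deviate together (correlations -0.25 to 0.1), and 3 of 12 tested correlated best with their own number. With the replicate block the calls over all genes were 2094, 2301, 524 and 224, with 1024 for the interaction, and 2, 1, 0, 0 and 0 members.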

Other observations

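Among genes outside the calls, Cemip, a gene needed for the breakdown of hyaluronan in skin cells, was at 0.21, 0.18 and 0.27 FPKM in WT 0 h and 0.55, 0.49 and 0.57 FPKM in WT 24 h libraries, and at 0.19, 0.43 and 0.25 and then 0.60, 0.88 and 0.85 FPKM in β8ITG-cKO LCs. The 2 times did not overlap in either genotype. Cemip passed the filter with time in β8ITG-cKO LCs, with a log2(FPKM + 1) change of 0.46 (standard error 0.15, adjusted p = 0.0334 by limma-trend), under the size limits for a call. Stab1, a scavenger receptor listed among the other receptors, was at 1.82 to 2.70 FPKM in WT 24 h and 3.09 to 3.65 FPKM in β8ITG-cKO 24 h libraries. The difference of 0.43 (standard error 0.16, limma-trend adjusted p = 0.18) did not pass the threshold, with no overlap between the libraries.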
